A study of Mus musculus with 39 samples.

Results

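The FGF pathway of naive extra-embryonic endoderm (nEnd) was read at 9 genes from peak lists of CUT&Tag, in which an antibody brings a transposase to a histone mark so that the DNA around it can be sequenced: the ligand Fgf4, the receptors Fgfr1 and Fgfr2, and the ERK targets Spry2, Spry4, Dusp4, Dusp6, Etv4 and Etv5. Peaks were taken from all 36 lists wherever they overlapped the body of 1 of these genes or the 20 kb on either side (mm10/GRCm38). The 9 windows held 290 of 432096 listed peaks, of which 117 were H3K27ac, 122 H3K4me1, 35 H3K27me3 and 16 H3K9me3. Merged within each mark over its 9 libraries, they made 103 regions.

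All libraries came from 1 mouse line, an embryonic stem cell line with an OCT4-mCherry reporter. It had been differentiated to primitive endoderm (PrE), sorted for PDGFRA and expanded as nEnd without further treatment, in RACL medium (Activin A, CHIR99021 and LIF in an RPMI base) on mouse fibroblast feeders. FACS on OCT4-mCherry and PDGFRA-APC gave 3 populations: Oct4+, double positive (DP) and Pdgfra+. Each population was profiled for H3K27ac and H3K4me1, marks of active and of active or primed regulatory DNA, and for H3K27me3 and H3K9me3, marks of Polycomb and of heterochromatin, with 3 replicates per mark. The 3 IgG samples were not analysed here.

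In the blastocyst the inner cell mass divides into pluripotent epiblast (Epi) and PrE. FGF4 is made by cells on the way to Epi and acts on FGF receptors, FGFR1 in all inner cells and FGFR2 mainly in PrE, and the RAS-ERK cascade below them favours PrE. ERK activity switches on its own brakes, the Sprouty proteins and the DUSP phosphatases, and the ETS factors ETV4 and ETV5, so that these genes are widely used as readouts of the pathway.

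Marker genes followed the sort. Promoters of 8 pluripotency genes (Pou5f1, Nanog, Sox2, Esrrb, Klf4, Zfp42, Tfcp2l1 and Tdgf1) had an H3K27ac peak at 6 to 7 genes in Oct4+ libraries, 1 to 3 in DP and 1 to 2 in Pdgfra+. For 8 endoderm genes (Pdgfra, Gata6, Gata4, Sox17, Sox7, Foxa2, Dab2 and Col4a1) the numbers were 0 to 3, 4 to 7 and 4 to 6. A list of 8 fibroblast genes, which would mark the feeders, had 0 to 1 in Oct4+ and 0 in every DP and Pdgfra+ library, and a list of 8 trophectoderm genes had 1 to 4, 2 to 3 and 3. The lists were of very unequal length, from 3079 to 65131 peaks for H3K27ac, 1074 to 16057 for H3K4me1, 1143 to 8672 for H3K27me3 and 5322 to 29970 for H3K9me3. Within Oct4+ the H3K27ac lists held 38619, 65131 and 8574 peaks in replicates 1 to 3. The lowest total signal of a listed H3K27ac peak was 6021, 5460 and 5716 in Oct4+ and 13683, 13728 and 14586 in DP. In Pdgfra+ it was 27115, 8736 and 28044. Sequencing depth is unknown, so the mark may be present where no peak was called. A peak also cannot tell apart more cells with the mark from more of the mark per cell.

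Values below are the percent of a gene's window that lay in listed peaks, given per library in the order of replicates 1, 2 and 3. The 3 populations were compared for each mark by an exact permutation test of the F statistic, adjusted by Benjamini-Hochberg over all protein-coding genes that had peaks in 3 or more of the 9 libraries. After adjustment it called 0 of 12781 genes (0%) for H3K27ac, 0% of 8708 for H3K4me1, 0% of 6766 for H3K27me3 and 0% of 9099 for H3K9me3, and none of the 9 members. The smallest p this test can give with 9 libraries is 0.00357, and 913 genes would have to reach it for a call at that p in H3K27ac, where 36 did. At an unadjusted p under 0.05 it called 12.4%, 9.41%, 10.4% and 17.9% of the genes, and 3, 3, 0 and 0 members. The moderated F test of limma, on log2(percent + 1), called 5.36%, 3.28%, 3.34% and 11.8% of the genes at an adjusted p under 0.05, and 3 members for H3K27ac, 2 for H3K4me1, 0 for H3K27me3 and 0 for H3K9me3. Fgf4 and Fgfr1 were among these members for H3K27ac and H3K4me1 in both tests. They entered through Oct4+ libraries alone. With 0% in all other libraries, their exact permutation p was fixed whatever the Oct4+ values. The member counts are therefore a description. Pairs of populations are described by whether their libraries overlapped, since an exact permutation test of 3 against 3 libraries cannot go below p = 0.10.

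Fgf4 (GeneID 14175, chr7:144861386-144865245, plus strand) had H3K27ac and H3K4me1 in Oct4+ lists and H3K27me3 mainly in DP and Pdgfra+ lists, and none of these differences passed the adjusted exact test. The 250 bases before its start are printed because this promoter had an H3K27me3 peak in 3 of 3 DP and 0 of 3 Oct4+ libraries, a state shared by 1.20% of the 21774 protein-coding genes. Below it is a stretch upstream of Fgf4 that held the strongest H3K27ac peak of the window, of Oct4+ replicate 1. Capitals mark CG dinucleotides in the promoter, and in the other the interval listed for the maximum H3K27ac signal.
Fgf4 promoter, chr7:144861136-144861385, plus strand: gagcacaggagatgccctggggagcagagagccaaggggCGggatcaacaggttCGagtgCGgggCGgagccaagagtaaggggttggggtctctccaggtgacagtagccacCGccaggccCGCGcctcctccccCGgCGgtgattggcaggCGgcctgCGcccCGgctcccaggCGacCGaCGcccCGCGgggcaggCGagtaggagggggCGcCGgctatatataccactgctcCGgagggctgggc
Fgf4 upstream H3K27ac maximum, chr7:144857388-144857687, plus strand: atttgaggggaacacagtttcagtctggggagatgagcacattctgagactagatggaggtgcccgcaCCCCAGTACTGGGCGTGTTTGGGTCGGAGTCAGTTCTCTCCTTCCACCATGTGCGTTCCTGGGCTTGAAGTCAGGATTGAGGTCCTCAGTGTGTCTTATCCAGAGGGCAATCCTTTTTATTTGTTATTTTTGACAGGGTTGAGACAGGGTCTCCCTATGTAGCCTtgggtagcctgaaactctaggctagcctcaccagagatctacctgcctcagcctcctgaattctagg

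This promoter held 21 CG dinucleotides in 250 bases, more than 84.7% of all promoters of that length (median 7). The upstream window lay 3.85 kb before the start and its peak stood above 95.8% of the peaks of that list in total signal. Sequences were read from RefSeq GRCm38.p6. Also shown are Fgfr1 and Etv5, as members whose H3K27ac separated Oct4+ from Pdgfra+ libraries. Their strongest H3K27ac peaks came from the same library, and the windows shown lie in introns. The intervals listed for the maximum signal spanned 1265 and 2029 bases, wider than the 300 bases shown at their midpoints. No letters are in capitals, since the lists do not give the signal of each base within them.
Fgfr1 intronic H3K27ac maximum, chr8:25547404-25547703, plus strand: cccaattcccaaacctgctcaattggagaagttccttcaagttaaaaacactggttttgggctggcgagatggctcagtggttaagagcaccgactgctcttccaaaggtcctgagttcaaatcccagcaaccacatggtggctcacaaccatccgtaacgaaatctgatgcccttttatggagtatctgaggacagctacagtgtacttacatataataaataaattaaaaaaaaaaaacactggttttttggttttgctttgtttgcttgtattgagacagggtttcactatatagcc
Etv5 intronic H3K27ac maximum, chr16:22403764-22404063, plus strand: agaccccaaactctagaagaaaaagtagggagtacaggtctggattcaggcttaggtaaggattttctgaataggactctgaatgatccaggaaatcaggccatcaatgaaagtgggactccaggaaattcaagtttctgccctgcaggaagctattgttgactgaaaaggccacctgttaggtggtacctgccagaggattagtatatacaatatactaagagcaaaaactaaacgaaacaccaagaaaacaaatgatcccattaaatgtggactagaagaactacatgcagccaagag

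None of the 6 motifs searched on both strands occurred in these 4 sequences or in the 250 bases before the start of any of the 9 genes. They were the octamer ATGCAAAT, an ETS site CCGGAAG, a STAT site TTCCNGGAA, a GATA site AGATAAG, an AP-1 site TGANTCA and a CRE TGACGTCA. These were found in 1.65%, 7.25%, 0.96%, 2.71%, 6.40% and 1.68% of 21765 promoters of that length, and in 1.45%, 3.68%, 1.02%, 3.37%, 9.45% and 0.518% of 38617 windows of 300 bases at the H3K27ac maxima of Oct4+ replicate 1.

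H3K27ac covered 30.3, 44.1 and 19.4% of the Fgf4 window in the Oct4+ libraries (31.3 ± 12.4%, SD, n = 3), and 0% in all 3 DP and all 3 Pdgfra+ libraries. H3K4me1 did the same, with 11.3, 55.0 and 35.5% in Oct4+ and 0% in the other 6. Every Oct4+ library thus lay above every other library for both marks. The exact permutation p was 0.0357 for each, adjusted p = 0.309 for H3K27ac and 0.428 for H3K4me1, and the adjusted p of limma 0.0163 and 0.0465. Fgf4 entered both tests through its Oct4+ libraries alone, which fixed the exact permutation p whatever their values. Its active regions were an interval at chr7:144845931-144852724, one at chr7:144853179-144859107, each with H3K27ac in 3 of 3 Oct4+ libraries and both intergenic, and another 6.21 kb past the start with H3K27ac in 2 of 3. The promoter itself had H3K27ac in 2 of 3 Oct4+ libraries. The strongest H3K27ac peak of the window had a total signal of 25377, below the lowest listed in Pdgfra+ replicates 1 and 3.

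H3K27me3 at Fgf4 covered 0.739, 0 and 6.71% in Oct4+, 31.0, 33.9 and 21.5% in DP, and 0, 9.93 and 43.2% in Pdgfra+. All DP libraries lay above all Oct4+ libraries, while the Pdgfra+ libraries spanned both. A domain over the gene, chr7:144852887-144868259, had a peak in 3 of 3 DP, 2 of 3 Pdgfra+ and 0 of 3 Oct4+ libraries. What Oct4+ libraries had in the window was the edge of a separate domain 26.1 kb upstream, over the promoter of the neighbouring ligand gene Fgf3. The test over the 3 populations gave an exact permutation p of 0.154 and an adjusted p of 0.496, and the adjusted p of limma was 0.284. The map of the Fgf4 window shows the H3K27ac and H3K4me1 intervals of Oct4+ and the H3K27me3 intervals of DP and Pdgfra+ over the same stretch.

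**Figure D1:**
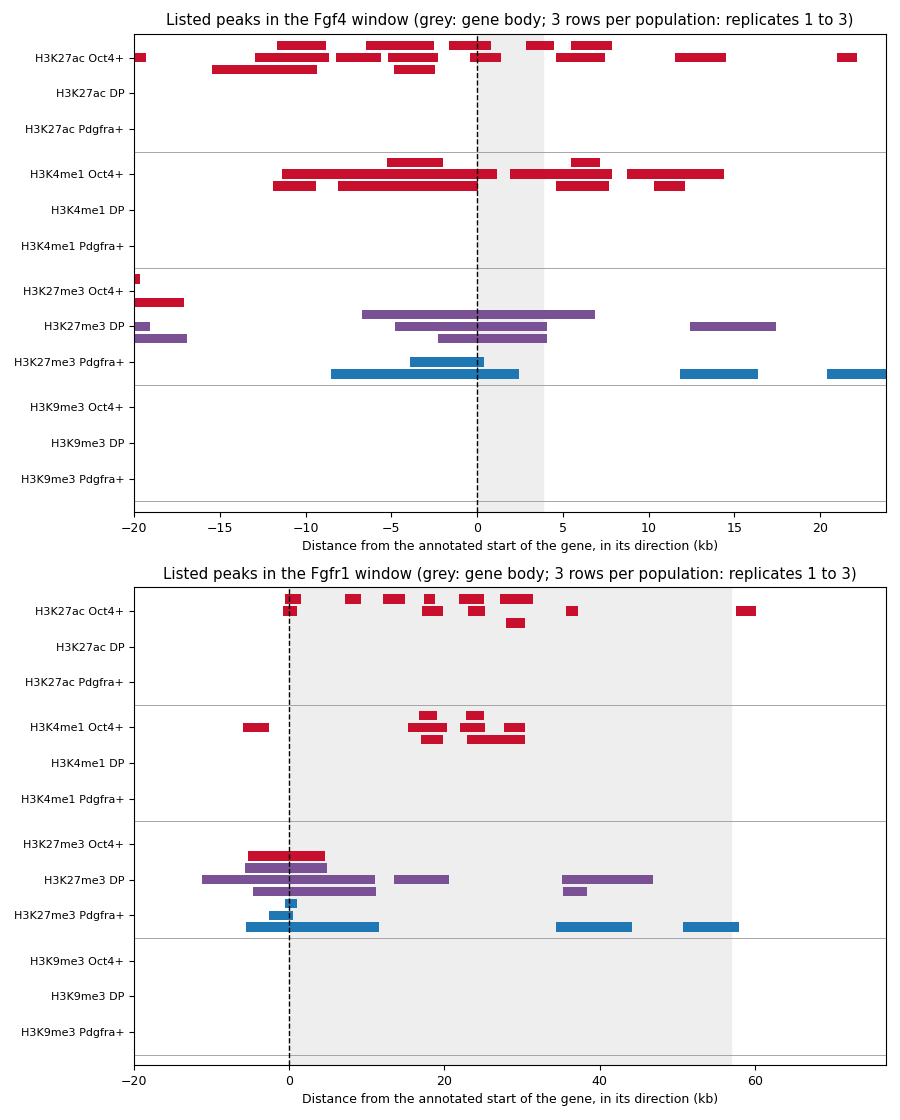
Listed peaks in the windows of Fgf4 (top) and Fgfr1 (bottom), against the distance from the annotated start in kb; each population has 3 rows for replicates 1 to 3 under each mark, and grey marks the gene body. H3K27ac and H3K4me1 intervals sit in Oct4+ rows alone. H3K27me3 over the start is in 3 of 3 DP and 2 of 3 Pdgfra+ rows at Fgf4. At Fgfr1 it is in 3 of 3 DP, 3 of 3 Pdgfra+ and 1 of 3 Oct4+ rows.

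Fgfr1 (GeneID 14182, chr8:25518759-25575718, plus strand), the receptor shared by Epi and PrE, followed Fgf4. H3K27ac covered 16.3, 11.2 and 2.51% of its window in Oct4+ (10.0 ± 6.97%, SD, n = 3) and 0% in the other 6 libraries. H3K4me1 covered 4.71, 14.8 and 10.8% in Oct4+ and again 0% elsewhere. Here too all Oct4+ libraries were above the rest, and the gene entered both tests through them alone (exact permutation p = 0.0357 for each, adjusted p = 0.309 and 0.428, limma adjusted p = 0.0227 and 0.0465). The H3K4me1 shared by all Oct4+ libraries was intronic, in regions at chr8:25534020-25539133 and chr8:25540757-25549186 that were listed in 3 of 3 Oct4+ libraries and carried H3K27ac in at least 2.

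The Fgfr1 promoter lay in an H3K27me3 domain, chr8:25507561-25530294, listed in 3 of 3 DP, 3 of 3 Pdgfra+ and 1 of 3 Oct4+ libraries. H3K27me3 covered 0, 0 and 10.2% of the window in Oct4+, 10.9, 42.3 and 19.6% in DP, and 1.63, 3.19 and 35.2% in Pdgfra+. The lowest DP library was thus just above the highest Oct4+ library, and Pdgfra+ overlapped both (exact permutation p = 0.339, adjusted p = 0.593). DP libraries were above Oct4+ libraries for 29.9% of all genes tested for H3K27me3, against Fgf4 and Fgfr1 among the 3 members tested, so that this order was common. Fgfr2 was the other member tested.

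Fgfr2 (GeneID 14183, chr7:130162451-130266808, minus strand), the receptor linked to PrE, differed from Fgfr1. H3K4me1 covered 1.27, 2.69 and 2.77% of its window in Oct4+, 7.69, 34.6 and 19.6% in DP (20.6 ± 13.5%, SD, n = 3), and 1.40, 0 and 3.60% in Pdgfra+. All 3 DP libraries were above the other 6 (exact permutation p = 0.025, adjusted p = 0.428, limma adjusted p = 0.263). Across all genes DP was above Oct4+ for 9.61% and above Pdgfra+ for 8.77%. Among members tested for H3K4me1, DP was above Oct4+ for Fgfr2 and above Pdgfra+ for Fgfr2 and Spry4.

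The DP signal at Fgfr2 was spread over 6 regions, all outside the promoter. An intergenic one beyond the 3′ end, chr7:130139859-130151659, had H3K4me1 in 3 of 3 DP, 0 of 3 Oct4+ and 1 of 3 Pdgfra+ libraries, and its peak ranked 42 of 4371 in DP replicate 1 by total signal. An intronic one 28.6 kb into the gene was in 3 of 3 DP libraries and in none of the other 6. The largest, chr7:130244255-130264458, was shared, with 3 of 3 Oct4+, 3 of 3 DP and 2 of 3 Pdgfra+ libraries. H3K27ac at Fgfr2 covered 4.81, 13.9 and 0% in Oct4+, 9.91, 0 and 0% in DP, and 0% in all 3 Pdgfra+ libraries. With H3K27ac in 1 of 3 DP libraries, none of the 6 DP H3K4me1 regions overlapped an H3K27ac region held by at least 2 of them. H3K27me3 covered 0, 5.19 and 16.8% in Oct4+, 0, 3.94 and 0% in DP, and 0, 0 and 4.67% in Pdgfra+, and the promoter was marked in 2 of 3 Oct4+ libraries and in no other. These populations overlapped for H3K27ac (adjusted p = 0.707) and H3K27me3 (adjusted p = 0.639, both by the exact permutation test).

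**Figure D2:**
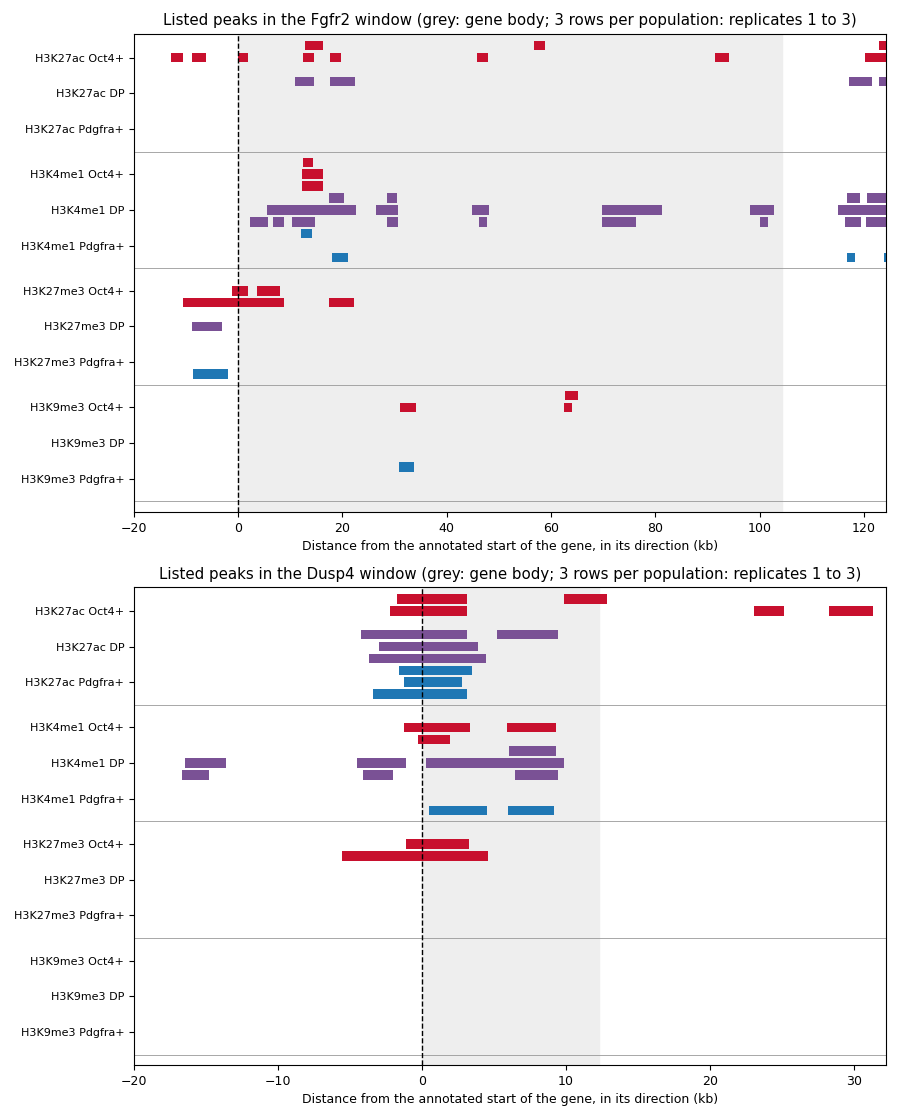
Listed peaks in the windows of Fgfr2 (top) and Dusp4 (bottom), drawn as for Fgf4. H3K4me1 of DP runs through the Fgfr2 body, and H3K27me3 at the start of Dusp4 appears in 2 Oct4+ rows and in no DP or Pdgfra+ row.

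Among the feedback inhibitors, Spry2 (GeneID 24064, chr14:105891947-105896819, minus strand) had a promoter peak of H3K27ac in all 9 libraries, as did 6.17% of all genes. SPRY2 restrains signalling between receptor and RAS. H3K27ac covered 16.1, 35.5 and 4.20% of the window in Oct4+, 16.0, 12.1 and 16.9% in DP, and 12.0, 8.06 and 14.1% in Pdgfra+, with all 3 populations overlapping (exact permutation p = 0.732, adjusted p = 0.865). H3K4me1 was highest in DP replicate 2 at 25.3% and absent from the lists of 4 libraries. No H3K27me3 peak lay in the window. An upstream region, chr14:105898506-105903825, had H3K4me1 in 2 of 3 Oct4+, 2 of 3 DP and 0 of 3 Pdgfra+ libraries.

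Spry4 (GeneID 24066, chr18:38586247-38601347, minus strand), a related Sprouty, had H3K27ac and H3K4me1 in Oct4+ and DP libraries and in no Pdgfra+ library. H3K27ac covered 10.3, 18.2 and 2.88% in Oct4+, 8.58, 0 and 6.44% in DP, and 0% in all 3 Pdgfra+ libraries. H3K4me1 covered 3.23, 48.7 and 21.6% in Oct4+, 3.13, 42.9 and 25.0% in DP, and 0% in all 3 Pdgfra+ libraries. For H3K4me1 the Oct4+ and DP libraries ran over the same range and both lay above Pdgfra+ (exact permutation p = 0.214, adjusted p = 0.635). For H3K27ac the exact permutation p was 0.121 and the adjusted p 0.517. The promoter had H3K27ac in 3 of 3 Oct4+, 2 of 3 DP and 0 of 3 Pdgfra+ libraries, and 2.51% of all genes had it in 3 of 3 Oct4+ and 0 of 3 Pdgfra+. The start of Arhgap26 lies in the same promoter region on the other strand, so these peaks belong to both genes. H3K27me3 was listed there in Pdgfra+ replicate 2 alone, over 7.14% of the window.

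Dusp4 (GeneID 319520, chr8:34807610-34819894, plus strand), a nuclear ERK phosphatase, had H3K27me3 in Oct4+ lists alone. It covered 0, 8.27 and 19.3% in Oct4+ and 0% in the other 6 libraries, in a region over the promoter, chr8:34802087-34812196. Oct4+ replicate 1, the shortest Oct4+ list of this mark, had no such peak, and with 2 libraries the gene was not tested. H3K27ac covered 15.0, 20.1 and 0% in Oct4+, 22.2, 13.2 and 15.5% in DP, and 9.82, 7.61 and 12.6% in Pdgfra+. All DP libraries were above all Pdgfra+ libraries, as for 2.03% of all genes, and Oct4+ spanned both (exact permutation p = 0.461, adjusted p = 0.707). The promoter peak was among the strongest of the DP lists, at rank 353 of 10957, 114 of 3079 and 543 of 12244 by total signal. H3K4me1 covered 0, 15.2 and 4.37% in Oct4+, 6.24, 30.4 and 13.2% in DP, and 0, 0 and 13.9% in Pdgfra+, which overlapped.

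Dusp6 (GeneID 67603, chr10:99263231-99267489, plus strand), the cytoplasmic ERK phosphatase and a standard ERK readout, kept H3K27ac at its promoter in 3 of 3 Oct4+, 2 of 3 DP and 3 of 3 Pdgfra+ libraries. The window was covered at 17.1, 14.4 and 4.40% in Oct4+, 6.92, 0 and 10.4% in DP, and 10.8, 5.21 and 9.60% in Pdgfra+. The populations overlapped (exact permutation p = 0.425, adjusted p = 0.707), and the 0% was in DP replicate 2, the shortest H3K27ac list with 3079 peaks. A downstream region, 26.4 kb from the start, was listed in 2 of 3 Oct4+ libraries and in no other. H3K4me1 appeared in 2 libraries, too few to test, and neither H3K27me3 nor H3K9me3 was listed.

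**Figure D3:**
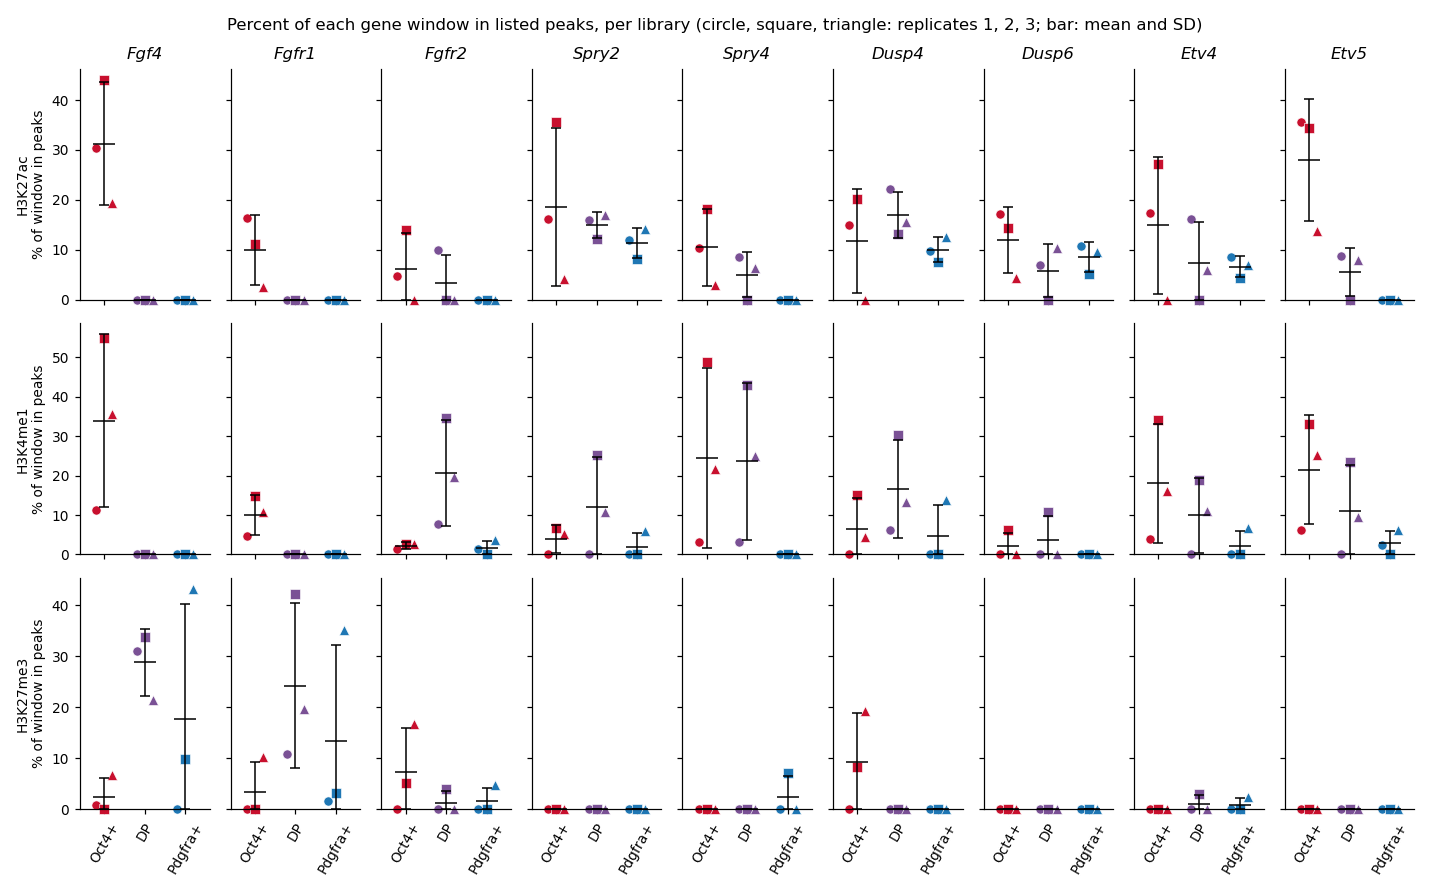
Percent of each gene's window in listed peaks of H3K27ac (top), H3K4me1 (middle) and H3K27me3 (bottom) in the 3 populations; each point is 1 library, and the black bars give the mean with the SD of 3 libraries, stopped at 0. Fgf4 and Fgfr1 are at 0% for H3K27ac and H3K4me1 outside Oct4+, while Spry2 and Dusp6 have H3K27ac in all 3 populations.

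Of the ETS factors, Etv5 (GeneID 104156, chr16:22381313-22439570, minus strand) had H3K27ac over 35.6, 34.3 and 13.8% of its window in Oct4+ (27.9 ± 12.2%, SD, n = 3), 8.71, 0 and 7.88% in DP, and 0% in all 3 Pdgfra+ libraries. All Oct4+ libraries were above all DP libraries, and the DP libraries reached from 0% up (exact permutation p = 0.0143, adjusted p = 0.309, limma adjusted p = 0.0404). Most of it was 1 broad interval inside the gene, chr16:22395917-22418667, which was 22751 bp wide and ranked 10 of 38619 in Oct4+ replicate 1. Replicates 2 and 3 had several shorter peaks there, of which the strongest ranked 91 of 65131 and 493 of 8574. This interval had H3K27ac in 3 of 3 Oct4+ libraries and in 0 of 6 others. The Etv5 promoter, in contrast, had H3K27ac in 2 of 3 Oct4+, 2 of 3 DP and 0 of 3 Pdgfra+ libraries. Its peaks had total signals of 16710 and 14486 in Oct4+ and 16198 and 19220 in DP. All lay below the lowest signal listed in Pdgfra+ replicates 1 and 3 (27115 and 28044). An intergenic region 66.5 kb past the start had H3K27ac in 2 of 3 DP libraries alone.

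H3K4me1 at Etv5 covered 6.14, 33.1 and 25.3% in Oct4+, 0, 23.5 and 9.45% in DP, and 2.47, 0 and 6.25% in Pdgfra+, and the populations overlapped (exact permutation p = 0.15, adjusted p = 0.627). H3K27me3 was not listed in the window. H3K9me3 was, in a region 7.45 kb upstream with a peak in 2 of 3 Oct4+, 2 of 3 DP and 3 of 3 Pdgfra+ libraries. It covered 2.57, 2.21 and 0% in Oct4+, 0, 2.41 and 2.36% in DP, and 3.77, 3.11 and 3.24% in Pdgfra+. Pdgfra+ was above Oct4+, as for 9.57% of all genes, and above DP, as for 1.96% (exact permutation p = 0.182, adjusted p = 0.506). With 50 kb flanks Oct4+ was instead above Pdgfra+. No promoter of the 9 genes had H3K9me3 in any library, as for 95.1% of all protein-coding genes. Outside Etv5 the mark was listed at Fgfr2, Spry2 and Spry4, at no more than 5.63% of a window.

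**Figure D4:**
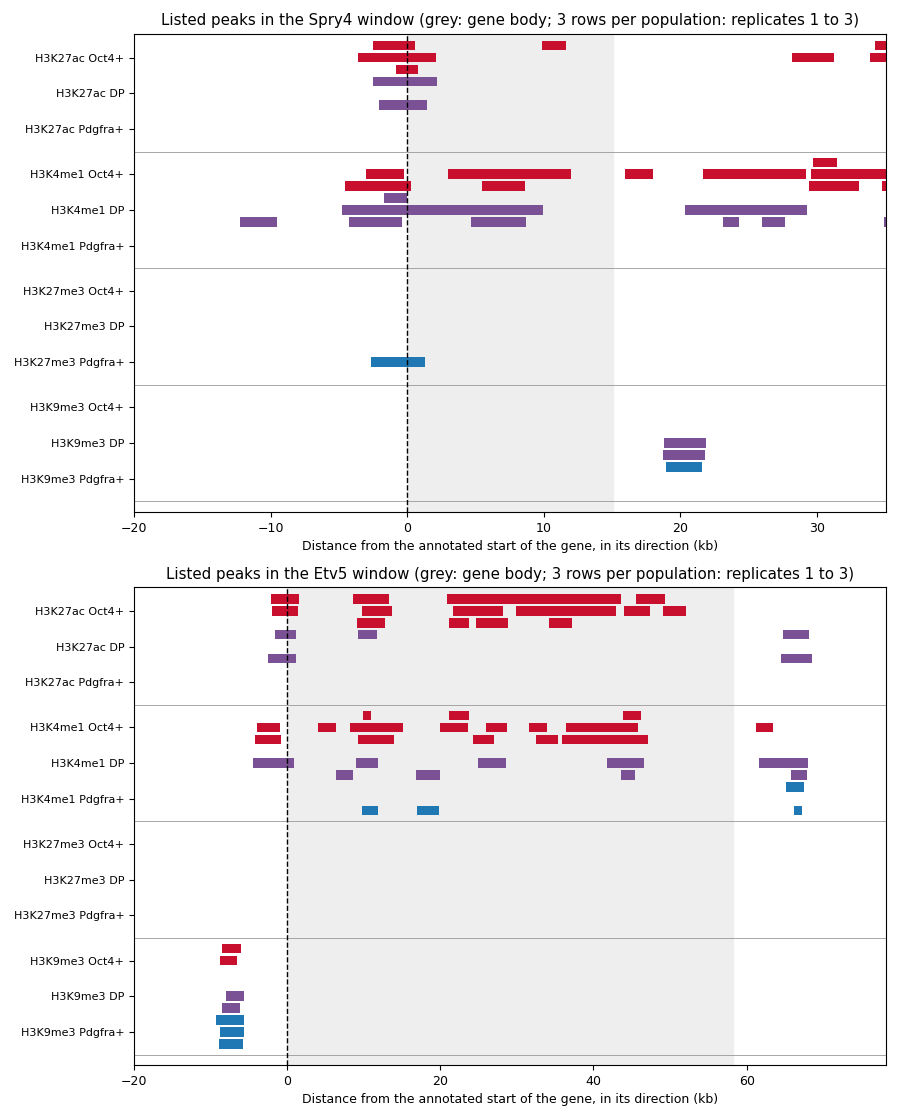
Listed peaks in the windows of Spry4 (top) and Etv5 (bottom), drawn as for Fgf4. Spry4 has H3K27ac and H3K4me1 in Oct4+ and DP rows and none in Pdgfra+. The broad Etv5 H3K27ac interval is in Oct4+ rows, as 1 peak of 22751 bp in replicate 1 and shorter peaks in the others.

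Etv4 (GeneID 18612, chr11:101769747-101785310, minus strand), the close relative of Etv5, had H3K27ac in all 3 populations, at 17.4, 27.2 and 0% in Oct4+, 16.2, 0 and 5.85% in DP, and 8.61, 4.34 and 6.95% in Pdgfra+ (exact permutation p = 0.557, adjusted p = 0.771). Libraries of all 3 overlapped, and the lists differed in which parts of the gene held a peak. A region around the 3′ end, chr11:101768544-101774563, was listed in 2 of 3 Oct4+ libraries and in 0 of 6 others. A region in the gene body, chr11:101775966-101781356, was in 1 of 3 Oct4+, 2 of 3 DP and 3 of 3 Pdgfra+ libraries, and the promoter in 2 of 3, 1 of 3 and 0 of 3. This difference between regions was not tested. The Oct4+ peaks around the 3′ end had total signals of 23271 and 23576. Those at the promoter had 16628 and 16893 in Oct4+ and 17702 in DP. All of these lay below the lowest signal listed in Pdgfra+ replicates 1 and 3 (27115 and 28044). H3K4me1 covered 3.98, 34.1 and 16.0% in Oct4+, 0, 18.9 and 11.0% in DP, and 0, 0 and 6.60% in Pdgfra+, overlapping again (adjusted p = 0.635 by the exact permutation test). H3K27me3 was listed in 2 libraries, at a domain 24.3 kb upstream.

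Read over the members, H3K27ac was higher in every Oct4+ library than in every Pdgfra+ library for Fgf4, Fgfr1, Spry4 and Etv5, 4 of 9, against 22.8% of all genes tested. It was higher in Oct4+ than in DP for Fgf4, Fgfr1 and Etv5, 3 of 9, against 11.8%. For H3K4me1 the same held between Oct4+ and Pdgfra+ for Fgf4, Fgfr1 and Spry4, 3 of the 8 members tested, against 15.6%, and between Oct4+ and DP for Fgf4 and Fgfr1, 2 of 8, against 6.38%. With so few members these shares are counts and not a test. The strongest Oct4+ H3K27ac peaks at Fgf4, Fgfr1 and Spry4 had total signals of 25377, 15314 and 23816. All lay below the lowest signal listed in Pdgfra+ replicates 1 and 3 (27115 and 28044). That at Etv5, 116493 in Oct4+ replicate 1, lay above, while the strongest Etv5 peak of Oct4+ replicate 3, 18142, lay below. In DP the lowest listed signals were 13683, 13728 and 14586. The strongest peaks of Oct4+ replicate 3 at Fgf4 (13323) and Fgfr1 (7764) lay below all of them, as did that of replicate 2 at Fgfr1 (9919). Above them lay 25377 and 15240 at Fgf4 (replicates 1 and 2), 15314 at Fgfr1 and 18142 at Etv5. Signal was not scaled to depth, so what this means for 0% in DP or Pdgfra+ was not tested.

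The number of peaks in a list moved with these differences, so each list was also held to the number in the shortest list of its mark, with the highest total signal kept. For H3K27ac, Oct4+ was then above Pdgfra+ for 9.35% of the genes tested and below for 21.1%. Among the 5 members tested it was above for Etv5 alone, at 28.0, 20.1 and 11.2% in Oct4+ and 0% in the other 6 libraries. Fgf4 stood at 9.10, 0 and 19.4% in Oct4+ and 0% elsewhere, and Fgfr1, Fgfr2 and Spry4 had at most 1 library above 0%. For H3K4me1, Oct4+ stayed above Pdgfra+ at Fgf4, at 7.39, 28.5 and 18.6% against 0% in the other 6. Oct4+ was above Pdgfra+ for 18.3% of the genes tested and below for 11.5%. H3K4me1 was also higher in DP than in Oct4+ at Fgfr2, at 2.64, 26.2 and 10.1% against 0% in the other 6, as for 15.2%. H3K27ac at Dusp4 then became higher in all DP libraries, at 14.1, 13.2 and 15.5%, than in all Oct4+ libraries, at 9.22, 10.3 and 0%, as for 19.9% of the genes. Cutting H3K27me3 lists to 1143 peaks ended the separation of DP from Oct4+, with 31.0, 0 and 0% in DP at Fgf4 and 0, 23.0 and 16.4% at Fgfr1, and left 0% at Dusp4 in every library. In the plot with equal lists, Etv5 H3K27ac and Fgf4 and Fgfr2 H3K4me1 keep their separation. These 3 windows had peaks in 1 population alone, so they entered the test through it.

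**Figure D5:**
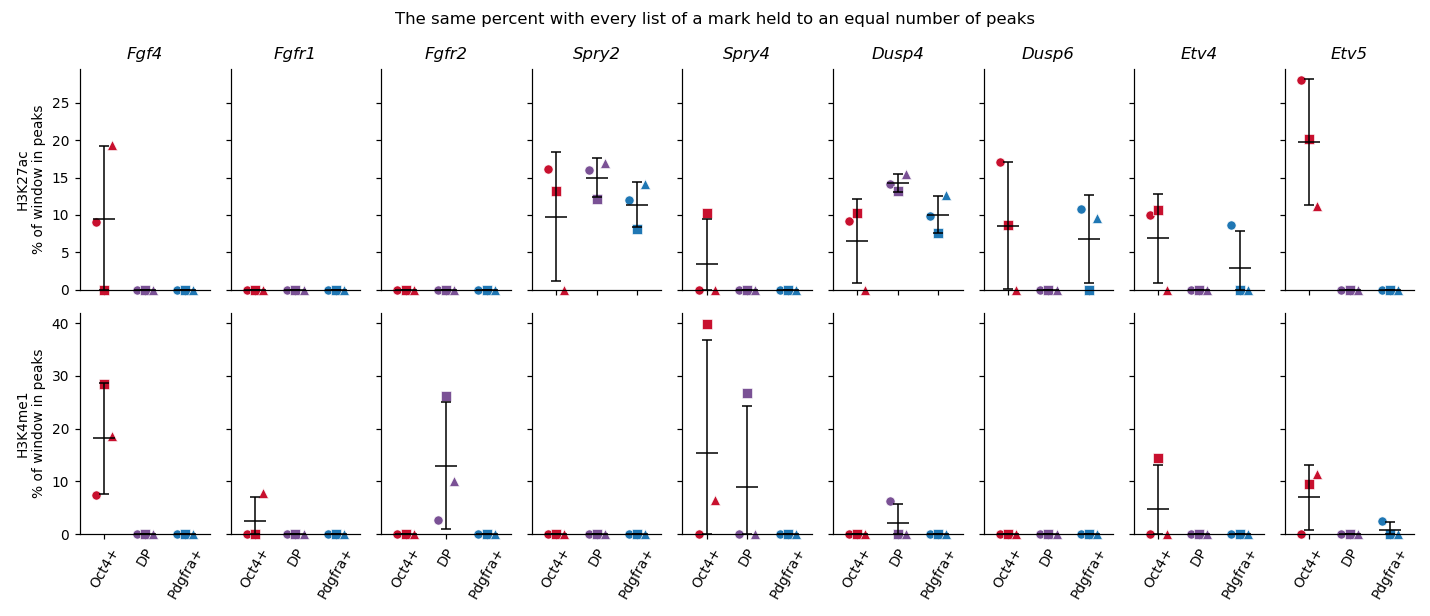
The same percent for H3K27ac (top, 3079 peaks per list) and H3K4me1 (bottom, 1074 peaks per list) with every list cut to the length of the shortest; points, bars and populations as in the plot of window coverage. Etv5 keeps H3K27ac in all 3 Oct4+ libraries, and Fgfr2 has H3K4me1 in DP libraries alone.

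Enhancer states were read at merged H3K4me1 regions that touched no promoter. This left out chr7:144849484-144862526, the region over and upstream of the Fgf4 promoter listed in 3 of 3 Oct4+ libraries. Of the regions kept, 15 were held by at least 2 Oct4+ libraries in the member windows. Among these 15, 12 (80.0%) overlapped an Oct4+ H3K27ac region, against 62.0% of 6279 such regions in the genome. In DP 5 of 14 (35.7%) did so with DP H3K27ac, against 34.9% of 6516. The other 9 (64.3%, against 58.7% in the genome) were primed, overlapping no H3K27ac or H3K27me3 region held by at least 2 DP libraries. These 9 included 1 each at Etv5, Spry4 and Dusp4 and all 6 at Fgfr2, where of the DP libraries only replicate 1 listed H3K27ac. In Pdgfra+ there was 1 such region, 66.3 kb past the start of Etv5, and it was primed, as were 56.8% of 1895 in the genome. The H3K4me1 lists of Pdgfra+ replicates 1 and 2 held only 1723 and 1074 peaks, so few regions could be held by at least 2 libraries.

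Another 57 genes of the FGF-ERK pathway were read in the same way, of which 47 could be tested for H3K27ac. Oct4+ was above Pdgfra+ for 13 and below for 1 of them, against 22.8% and 1.23% of all genes, with a median difference of 5.94 percentage points against 5.77 over all genes tested. With equal lists the order turned, to 2 above and 6 below among 24 tested, and over all genes Oct4+ was then below Pdgfra+ for 21.1%. The largest differences toward Oct4+ were at Fgf3, whose window overlaps that of Fgf4, with 20.7, 44.4 and 19.0% in Oct4+ and 0% elsewhere, and at the ERK inhibitor Spred2. Spred2 was covered at 38.2, 39.2 and 11.9% in Oct4+, 10.3, 3.11 and 8.11% in DP, and 2.74, 1.89 and 3.68% in Pdgfra+ (exact permutation p = 0.00714, adjusted p = 0.309). All its Oct4+ libraries were above all others. Toward Pdgfra+ the largest were at the immediate early gene Fos, with 22.8, 19.7 and 0% against 20.4, 18.5 and 30.7%, and at the ETS factor Ets1, with 2.54, 10.6 and 0% against 12.0, 7.15 and 6.86%, and both overlapped. By limma, 4 of the 47 passed an adjusted p of 0.05, against 5.36% of all genes, namely the ligand genes Fgf3 and Fgf8, the inhibitor Spred1 and the ETS factor Etv1, named after their values were seen. All 4 had H3K27ac in the 3 Oct4+ libraries and 0% elsewhere, so they entered the test through Oct4+ alone, and their count is a description.

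For H3K4me1, 36 pathway genes could be tested. Oct4+ was above Pdgfra+ for 4 of them, against 15.6% of all genes, and below for 0, while the median difference was 3.36 points against 2.11 over all genes. For H3K27me3, 22 could be tested, and DP was above Oct4+ for 4 of them, the decoy receptor gene Fgfrl1, the kinase gene Braf, the repressor gene Cic and Fos, against 29.9% of all genes, and above Pdgfra+ for 8, against 21.0%. At Fos, H3K27me3 covered 39.1, 53.4 and 39.2% of its window in DP, 0, 0 and 14.6% in Oct4+, and 0, 0 and 14.8% in Pdgfra+ (exact permutation p = 0.0357, adjusted p = 0.39). Median differences of H3K27me3 were 0.955 points toward Oct4+ in the list and -0.0241 over all genes. These genes were named after their values were seen.

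The genes whose windows resembled each member most over all 36 libraries were found by Pearson correlation, as a description in which lists of 1 mark share their length. For Fgf4 they were Lemd1 (r = 0.97) and Zc3h12a (0.955), for Fgfr1 Traf1 (0.944) and Arhgef39 (0.935), and for Fgfr2 Lefty1 (0.913) and Atp4a (0.909). For Spry2 they were Nfatc3 (0.956) and Rpl4 (0.95), for Spry4 Mrps35 (0.934) and Znrf2 (0.926), and for Dusp4 Gata6 (0.919), a PrE transcription factor, and Shf (0.915). For Dusp6 they were Sox15 (0.963) and Fnbp4 (0.952), for Etv4 Ppp1cc (0.956) and Trim8 (0.949), and for Etv5 Zfp57 (0.977) and Mog (0.976).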

How the data were processed

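CUT&Tag peak lists were analysed for 36 libraries, 4 marks in 3 populations with 3 replicates each, grouped as the labels name them. The authors called peaks per library against IgG with SEACR in stringent mode, and the submitters' processing notes also name bcl2fastq 2.19.1, Bowtie2, SAMtools 1.12, deepTools, bedtools 2.26.0 and the build mm10. Each deposited line gives an interval with its total and maximum signal, in whole numbers not scaled to depth. The SEACR normalization setting is not given in the sources used here. Replicates are biological by the study's methods.

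Gene bounds were taken from RefSeq GRCm38.p6, whose 21774 protein-coding genes were all measured. It was chosen after the annotation but not the values were seen, because a long GENCODE transcript extends Fgfr2 far past its body. The percent of the gene body plus 20 kb either side that lay in peaks was tested by an exact permutation of F over all 1680 assignments, two-sided by construction, with Benjamini-Hochberg adjustment within each mark. Promoters ran from 1000 bp upstream to 100 bp downstream of the annotated start. Enhancer states used regions merged within a population and listed in at least 2 of its 3 libraries, where any overlap counted. Pathway genes were named by the largest Oct4+ minus Pdgfra+ difference in H3K27ac, 2 in each direction, since none passed the threshold. The names of the pathway genes separated for H3K4me1 are not reported here. All libraries entered every fit, and the test was checked on simulated data. Alternatives were equal list lengths, the strongest 50% of each list, other windows and measures, limma, no filter, a replicate block and leaving out each library. Python 3.11.15, NumPy 2.4.6, pandas 2.3.3, Matplotlib 3.10.9, R 4.3.3 and limma 3.58.1 were used. Members and gene lists were chosen with earlier results of these data known.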

Additional observations from a re-analysis of the deposited data

How the results depend on the processing

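The number of members called by the adjusted exact test stayed at 0 for all 4 marks under every alternative run with that test, including the replicate block, in which populations were permuted within replicate numbers (value 0 for each mark). A count of 0 throughout says nothing about stability. The limma fit called 3 members for H3K27ac (5.36% of all genes) and 2 for H3K4me1 (3.28%). Replicate numbers were not taken as pairs in the main test, and the labels do not say whether same-numbered libraries belong together. Deviations of same-numbered libraries correlated above 0.1 in 1, 3, 2 and 0 of 9 pairs for H3K27ac, H3K4me1, H3K27me3 and H3K9me3. This cannot show whether they were paired.

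Members whose Oct4+ and Pdgfra+ libraries did not overlap, in either direction, numbered 4 of 9 tested for H3K27ac (24.0% of all genes), but 1 of 5 with equal list lengths (30.5%), 1 of 6 at the promoter alone (12.5%) and 7 of 9 as share of the library signal (41.1%), of which 3 had Oct4+ below. Leaving out 1 library gave 2 to 7. Without any 1 Oct4+ library, Fgf4 and Fgfr1 had too few libraries to be tested. It was 2 of 6 without Oct4+ replicate 1 (22.1%) or 2 (27.4%), and 7 of 7 without Oct4+ replicate 3 (69.5%). For H3K4me1 it was 3 of 8 (16.6%), but 1 of 4 with equal list lengths (29.9%) and 0 of 2 at the promoter (8.32%). Leaving out 1 library gave 1 to 5, with 1 of 6 without Oct4+ replicate 2 (16.6%) or 3 (17.0%) and 5 of 8 without Pdgfra+ replicate 3 (37.8%). For H3K27me3 it was 0 of 3 (5.99%), but 1 of 3 as share of the library signal (18.9%) and relative to the library mean (16.6%), and 0 to 1 on leaving out 1 library, with 1 without Oct4+ replicate 1 (13.1%) or 3 (9.29%) or Pdgfra+ replicate 1 (12.9%). For H3K9me3 it was 1 of 3 (28.3%), but 0 with equal list lengths, with 5 kb flanks, at the promoter (where 0 members could be tested) or as share of the library signal (44.5, 28.8, 28.9 and 38.9%), and 2 of 6 with 50 kb flanks (26.4%), Dusp6 and Etv5, both then with Oct4+ above. Causes not stated here were not tested.

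The difference between the highest and the lowest population of a member was recomputed 410 times over 23 members and marks, and its direction turned 9 times. H3K27ac at Spry2, where Oct4+ had been above Pdgfra+, turned with equal list lengths (-1.60 points), with the strongest 50% of each list (-1.60), at the promoter (-23.0), as share of the library signal (-0.0116%), relative to the library mean (-1.54 times it) and without Oct4+ replicate 2, with -1.21 to 14.4 points on leaving out 1 library and 14.4 without Oct4+ replicate 3. H3K27ac at Etv4 turned as share of the library signal (-0.00731%) and relative to the library mean (-0.788 times it), and H3K9me3 at Etv5 with 50 kb flanks (-0.942 points, Pdgfra+ minus DP). Dusp4 H3K27ac, DP minus Pdgfra+, was 0 at the promoter. With limma 5 passed the threshold (Fgf4 and Fgfr1 for H3K27ac and H3K4me1, Etv5 for H3K27ac). Of all genes, 5.36% did so for H3K27ac and 3.28% for H3K4me1. Fgf4 and Fgfr1 entered through Oct4+ libraries alone, so their passing is a description. With equal list lengths 11 of the 23 could not be tested and 8 of the other 12 moved by over 1.5 times. On leaving out 1 library 21 of 207 could not be tested and 19 of 186 moved so, such as Etv4 H3K27ac from 8.25 to 2.07 points without Oct4+ replicate 2. The lists give no depth, so absence from a list is weak evidence for the shortest ones and for those whose lowest listed signal is high.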
